A study of Mus musculus with 6 samples.

Results

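The 32 genes described here encode the mouse PIWI-interacting RNA (piRNA) pathway: the PIWI proteins, the enzymes and Tudor proteins that make their guide RNAs, the factors that act on chromatin, and a pair of transcriptional regulators. They were chosen by name out of 21751 protein-coding genes of the annotation. An interval was counted as belonging to a gene when the transcript in its deposited annotation, or the nearest start site, mapped to that gene. By this rule the genes held 21 of 7861 intervals in TAF4b replicate 1, 1 of 848 in TAF4b replicate 2, 57 of 64891 in H3K4me3 replicate 1 and 3 of 1730 in H3K4me3 replicate 2. Exd1 had no interval in any of the 4 lists, and the other 31 genes had at least 1.

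The intervals come from CUT&RUN, in which an antibody tethers a nuclease to its target so that the surrounding DNA is released and sequenced. The target was either TAF4b, a germ cell-enriched subunit of the general transcription factor TFIID, or H3K4me3, a histone mark of active and poised promoters, with 2 replicates each. All libraries came from male prospermatogonia, the germ cells of the fetal testis, at E16.5, an embryonic day late in gestation. Per the labels the strain was C57BL/6 and the genotype Taf4b-wildtype, and the parents were homozygous for an Oct4-EGFP transgene (B6;129S4-Pou5f1tm2Jae/J), so that every group carries the reporter. Dead cells were removed with propidium iodide and cells were sorted on green fluorescence. The labels used here name neither the number of embryos behind a library nor the cells that a replicate number shares, so a difference between replicates may be technical. Marker counts in H3K4me3 replicate 1 do not separate germ cells from Sertoli cells. The short list of H3K4me3 replicate 2 had an interval at 3 of 6 Sertoli and 0 of 10 germ cell markers, beside 7.46% of all genes. Of the Sertoli markers only Wt1 had one at its promoter, beside 4.78% of all genes. On these 3 Sertoli genes the replicate 2 list goes against the germ cell label. Its rows at piRNA genes are given apart from those of replicate 1.

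In the fetal testis, germ cells erase and then rewrite DNA methylation, and transposons can be transcribed while methylation is low. The piRNA pathway cuts transposon transcripts in the cytoplasm through PIWI proteins loaded with short guides, and sends a PIWI protein to the nucleus to direct methylation of transposon promoters. Guides are cut from long precursors at mitochondria, trimmed and methylated at their ends, and amplified in cytoplasmic granules called nuage, which Tudor proteins hold together by binding methylated arginines of PIWI proteins.

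Sequences under some of the TAF4b peaks are printed here. They were taken from the 12 highest-scoring TAF4b replicate 1 peaks of piRNA genes that also lay in an H3K4me3 region. Of these, Tdrkh, Ddx4 and Tdrd7 are left out, as fewer than 30 bases were free of exons of coding transcripts. The bases shown are the upstream part of the peak that no coding transcript's exon overlaps. They are given on the strand of the gene, 5′ to 3′, from the GRCm39 genome. Capitals mark any match, on either strand, to the motifs searched. CCAAT is known as the NF-Y motif and reads ATTGG on the other strand, GGGCGG is known for SP and KLF factors, and CACGTG is an E box. GCGCATG is one arm of the palindrome known for NRF1, GGCGGGA is known for E2F, and CCGGAAG for ETS factors. GGGCGG and GGCGGGA can overlap each other. The first 3 come from genes with high peak scores among those printed: Prmt5 (chr14:54754983-54755019, minus strand), Snd1 (chr6:28480157-28480299, plus strand) and Mael (chr1:166066332-166066392, minus strand).
Prmt5: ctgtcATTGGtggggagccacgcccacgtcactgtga
Snd1: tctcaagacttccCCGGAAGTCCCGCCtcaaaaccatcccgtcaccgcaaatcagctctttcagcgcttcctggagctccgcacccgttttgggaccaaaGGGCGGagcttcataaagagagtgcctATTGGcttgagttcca
Mael: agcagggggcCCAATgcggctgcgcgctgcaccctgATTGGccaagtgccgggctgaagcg
Prmt5, Snd1 and Mael each held the CCAAT motif, and Mael held it in both orientations within 61 bases. The Snd1 peak also held an ETS, an E2F and an SP/KLF match. The next 3 show repeated CCAAT matches: Mov10l1 (chr15:88866990-88867084, plus strand), Piwil2 (chr14:70666833-70666966, minus strand) and Tdrd3 (chr14:87653239-87653381, plus strand).
Mov10l1: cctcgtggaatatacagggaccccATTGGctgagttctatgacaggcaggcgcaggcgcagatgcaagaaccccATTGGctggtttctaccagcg
Piwil2: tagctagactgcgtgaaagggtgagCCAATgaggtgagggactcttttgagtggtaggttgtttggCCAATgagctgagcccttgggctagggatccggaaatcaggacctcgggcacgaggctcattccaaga
Tdrd3: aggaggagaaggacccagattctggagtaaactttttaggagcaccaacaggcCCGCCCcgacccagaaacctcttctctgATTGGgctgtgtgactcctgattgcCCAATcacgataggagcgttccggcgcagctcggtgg
The last 3 are Stk31, Mybl1 and Rnf17. Stk31 (chr6:49372339-49372472, plus strand) held the NRF1 arm, an E box and an SP/KLF match. Mybl1 (chr1:9770629-9770703, minus strand) held a run of SP/KLF matches and a CCAAT match. Rnf17 (chr14:56639966-56640037, plus strand) had no match in the bases shown, although its whole peak held a CCAAT match.
Stk31: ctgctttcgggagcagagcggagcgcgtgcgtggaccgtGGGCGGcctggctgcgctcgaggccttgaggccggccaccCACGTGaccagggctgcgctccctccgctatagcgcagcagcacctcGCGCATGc
Mybl1: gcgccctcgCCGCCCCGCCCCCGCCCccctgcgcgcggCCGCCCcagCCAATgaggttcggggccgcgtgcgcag
Rnf17: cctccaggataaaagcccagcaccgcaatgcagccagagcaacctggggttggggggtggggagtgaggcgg
Of all 21 TAF4b replicate 1 promoter peaks at piRNA genes, printed or not, CCAAT was present in 61.9%, against 37.9% of all 5756 promoter peaks. A match is a description of the letters and does not show that a factor was bound.

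In TAF4b replicate 1, 20 of the 32 piRNA genes (62.5%) had a promoter-TSS interval, the class that the deposited annotation gives to intervals centred near a transcription start site, against 24.9% of all protein-coding genes. H3K4me3 replicate 1 listed a promoter-TSS interval at 28 of the 32 (87.5%), against 48.6% of all genes. Piwil1 is among the 28 only through an interval 28520 bp downstream of the start site that most of its annotated transcripts share. The replicate 2 lists were far shorter, and there the counts were 1 gene for TAF4b (Snd1, 3.12%, against 3.57%) and 3 for H3K4me3 (Btbd18, Mybl1 and Tdrd3, 9.38%, against 4.78%). The TAF4b result at 19 of the 20 genes therefore rests on replicate 1 alone, and leaving replicate 1 out left 1 gene. Without H3K4me3 replicate 2 the H3K4me3 count over both replicates stayed at 28. No test was run on these counts, because genes are not replicates, and the IgG control libraries were not analysed here.

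**Figure D1:**
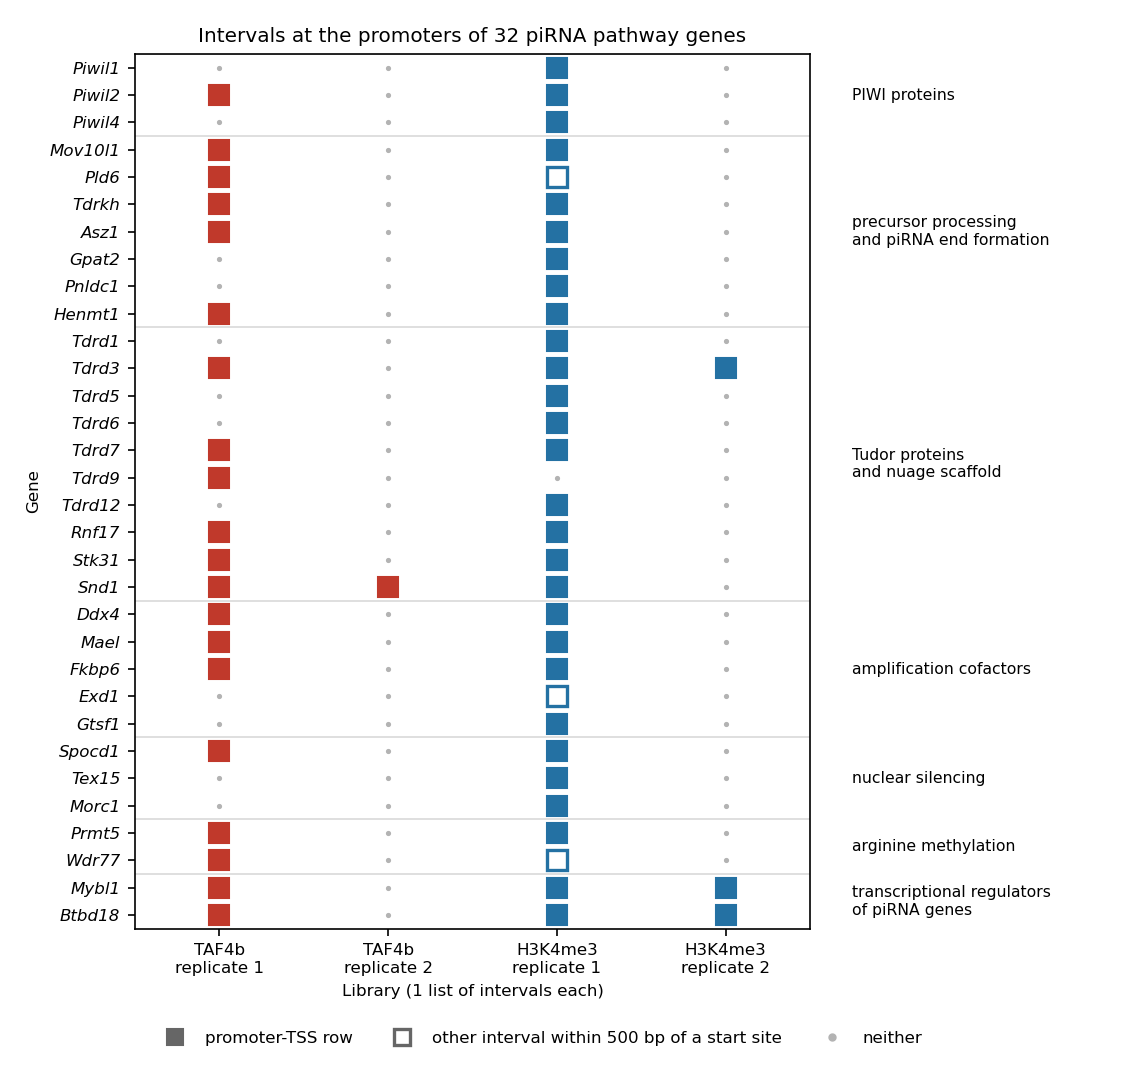
Presence of intervals at the 32 piRNA pathway genes (vertical axis, grouped by role) in the 4 lists (horizontal axis). Filled squares mark a promoter-TSS interval, open squares another interval within 500 bp of an annotated start site, and dots neither. The TAF4b replicate 1 column is filled for 20 genes and the H3K4me3 replicate 1 column for 28, while the replicate 2 columns hold 1 and 3.

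The piRNA genes fell into 4 classes when both replicate 1 lists were set side by side. Both a TAF4b and an H3K4me3 promoter interval were listed at 17 genes, TAF4b alone at 3 (Pld6, Tdrd9 and Wdr77), H3K4me3 alone at 11, and neither at Exd1. Because a row names few genes, coordinates were also compared directly. An H3K4me3 replicate 1 region lay within 500 bp of an annotated start site at 31 of the 32 genes, all but Tdrd9, against 70.7% of all genes. TAF4b gave 20 of 32 in replicate 1, against 28.2%, and Snd1 in replicate 2, against 4.08%. Counting rows of any class, TAF4b replicate 1 still named 20 genes, against 29% of all genes. By that count H3K4me3 replicate 1 named 29 (90.6%), against 78.4%, and H3K4me3 replicate 2 named the same 3, against 7.46%. Among genes with an H3K4me3 region at that distance, 19 of 31 piRNA genes (61.3%) had a TAF4b promoter peak, against 34.4% of all such genes. Among genes with an H3K4me3 promoter-TSS interval the shares were 17 of 28 (60.7%) and 39.3%. The roles hold 2 to 10 genes each, so their counts are given as descriptions beside the all-gene shares of 24.9% for TAF4b and 48.6% for H3K4me3, and no role was shown to differ from another.

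Of the PIWI proteins themselves, only Piwil2 had a TAF4b peak. Piwil2 encodes MILI, a PIWI protein that cuts transposon RNA in fetal germ cells. Its TAF4b replicate 1 peak (chr14:70666824-70666966) had a deposited score of 19.4, rank 2303 of 5756 promoter peaks, and its centre lay at -63 bp, where a negative distance is upstream of the nearest start site. Scores are the authors' values on a scale that is not given in the sources used here, so they are compared within a list only. The H3K4me3 replicate 1 region at Piwil2 scored 76.0 over 1230 bp, and no interval was listed in either replicate 2.

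Piwil4 encodes MIWI2, the PIWI protein that enters the nucleus of fetal germ cells, and it had no TAF4b row in either replicate. Its H3K4me3 replicate 1 promoter region scored 35.8 with the minimum width of 500 bp and a distance of -20 bp, and 15.8% of promoter regions scored lower. A further H3K4me3 region of score 26.8 was listed in an exon of Piwil4. Piwil1, whose protein MIWI acts in later, meiotic and postmeiotic cells, had no TAF4b row either. The H3K4me3 promoter-TSS interval counted for Piwil1 (score 26.8, 500 bp) was annotated to the gene 4930553I04Rik, 129 bp from the start site the files call nearest. It lay 28520 to 29020 bp downstream of the start site that most annotated Piwil1 transcripts share. A wider Piwil1 region, classed as intron (chr5:128784094-128784903, score 41.7, 809 bp), covered that shared start site. All 3 PIWI genes were thus listed in H3K4me3 replicate 1, Piwil1 through its distant interval, against 48.6% of all genes. Within 500 bp of a start site the H3K4me3 replicate 1 count was also 3, against 70.7%. In TAF4b replicate 1 the promoter count was 1, near the 24.9% of all genes.

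Genes for precursor processing and piRNA end formation had a TAF4b promoter interval at 5 of 7 and an H3K4me3 promoter interval at 6 of 7 in replicate 1. Mov10l1, the RNA helicase that feeds precursors into processing, had a TAF4b peak (chr15:88866990-88867132) of score 22.3, rank 1693, at -51 bp. Its H3K4me3 region was narrow and low, with a score of 25.3 over 500 bp, and 6.74% of promoter regions scored lower. Pld6, the mitochondrial nuclease-family protein known as Zucchini in flies, had a peak (chr11:59678463-59678605) of score 15.9, rank 3117, at -63 bp. The H3K4me3 region over the Pld6 start site scored 87.9 over 1307 bp and was classed as exon, with its centre 302 bp downstream. Pld6 therefore counts as TAF4b alone only by the class of its region.

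Tdrkh, a mitochondrial Tudor protein that brings PIWI proteins to the trimming enzyme, had the highest TAF4b score of this role. The peak (chr3:94320473-94320615) scored 24.3, rank 1349, at -36 bp, inside an H3K4me3 region of score 96.9 and 1442 bp. Asz1, a scaffold of the nuage between mitochondria, had a TAF4b peak (chr6:18108967-18109109) of score 15.4, rank 3243, centred 5 bp downstream of its start site, inside an H3K4me3 region of score 95.4 and 1438 bp. Henmt1, the methyltransferase that protects trimmed piRNA ends, was the lowest of this role at 9.93, rank 4900 (chr3:108847645-108847787). Its nearest listed start site belonged to the gene Gm9857, on the opposite strand, 45 bp from the peak's centre. The H3K4me3 region there scored 47.7 over 1222 bp.

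Gpat2, a mitochondrial membrane protein needed for primary piRNAs, and Pnldc1, the trimming exonuclease, had no TAF4b row. Their H3K4me3 replicate 1 regions were nonetheless wide: 1454 bp with a score of 68.6 at Gpat2, and 1599 bp with a score of 116.3 at Pnldc1. At Pnldc1 75.4% of promoter regions scored lower, which placed it behind Mybl1 and Tdrd5 among the promoter regions of piRNA genes in that list.

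The Tudor proteins and nuage scaffold genes were listed at TAF4b in 6 of 10 and at H3K4me3 in 9 of 10. Snd1 encodes a widely expressed protein with nuclease-like domains and a Tudor domain, and it was the only piRNA gene with a TAF4b peak in both replicates. The replicate 1 peak (chr6:28480157-28480299) scored 30.8, rank 622 of 5756, at -119 bp. The replicate 2 peak (chr6:28480137-28480325) scored 64.8, rank 293 of 748 promoter peaks, at -116 bp, and overlapped the first. The H3K4me3 replicate 1 region spanned 1505 bp around the start site with a score of 108.8, and no H3K4me3 replicate 2 region was listed at Snd1. Further H3K4me3 rows inside the long Snd1 gene included one of 3231 bp and score 177.4 (chr6:28831264-28834495) whose nearest start site was that of Lrrc4, a gene located in a Snd1 intron.

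Tdrd3, a Tudor protein known as a transcriptional coactivator, was the only piRNA gene with more than 1 TAF4b peak. The upstream peak (chr14:87653239-87653381) scored 16.4, rank 2991, at -765 bp from the start site the files call nearest, and the other (chr14:87653904-87654046) scored 10.4, rank 4758, at -100 bp. The first lay inside an H3K4me3 replicate 1 region (score 44.7, 993 bp), and the second lay between that region and the next. H3K4me3 replicate 2 also listed Tdrd3 (chr14:87653235-87653907, score 166.8, rank 92 of 1037, -504 bp), the highest ranked of the 3 piRNA genes there, and that region overlapped both TAF4b peaks. On the map of start sites the first Tdrd3 peak sits upstream of the commonest start and the other downstream of it.

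Tdrd7, a granule protein of the chromatoid body, had a TAF4b peak (chr4:45972191-45972333) of score 17.9, rank 2626, at 29 bp, in an H3K4me3 region of score 105.8 and 1604 bp. Rnf17, a Tudor protein of later germ cells that restrains piRNA amplification, had one (chr14:56639966-56640108) of score 16.9, rank 2867, at -1 bp. Its H3K4me3 region scored 79.0 over 1090 bp. Stk31, which joins a Tudor domain to a kinase-like domain, had the same TAF4b score and rank as Rnf17 (chr6:49372339-49372481, -128 bp), with an H3K4me3 region of score 40.2 and 692 bp.

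Tdrd9 stood apart from the other piRNA genes. It encodes a helicase with a Tudor domain that works with MIWI2, and its TAF4b peak (chr12:111937881-111938023) scored 23.3, rank 1537, at -41 bp. No H3K4me3 region of either replicate lay within 500 bp of its start sites, and no other H3K4me3 row named it. Depth is unknown for these lists, so a mark below the authors' threshold at Tdrd9 cannot be told apart from its absence.

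Tdrd1, Tdrd5, Tdrd6 and Tdrd12 had H3K4me3 without a TAF4b row. Tdrd1, which docks MILI in nuage, had a region of score 80.5 and 1570 bp, and Tdrd5, which binds piRNA precursors, one of score 134.2 and 1973 bp, above 83.5% of promoter regions. Tdrd12, needed to load MIWI2, had a region of score 98.4 and 906 bp. Tdrd6, a scaffold of the chromatoid body of later cells, had a promoter region of score 58.1 and 626 bp at -567 bp, and an exon region of score 53.7 and 1128 bp on the other side of its commonest start site. The promoter region at Tdrd5 thus scored above the promoter regions of all piRNA genes with a TAF4b peak except Mybl1.

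**Figure D2:**
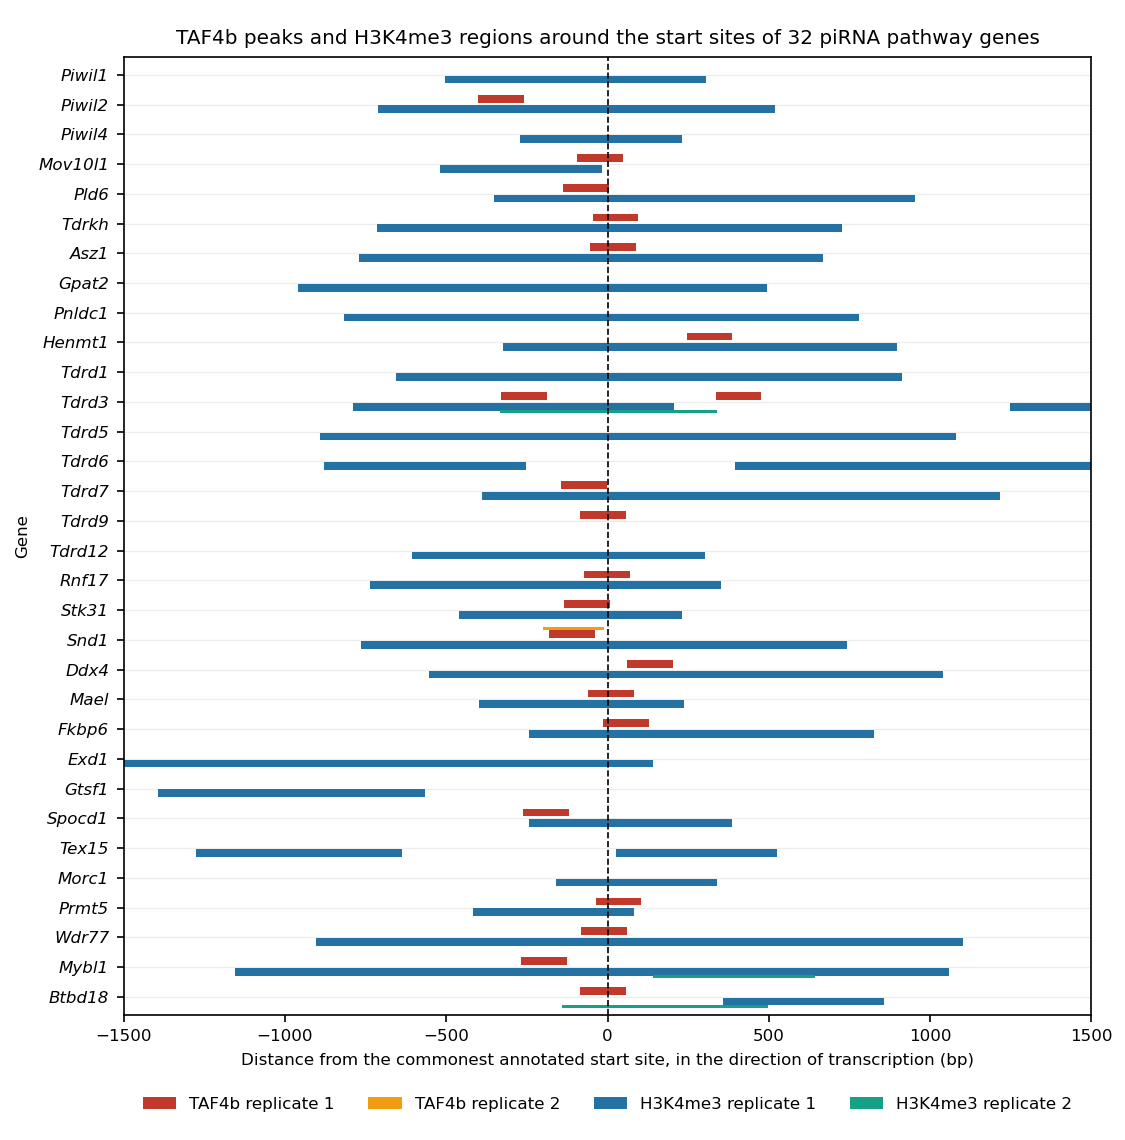
Extent of TAF4b peaks and H3K4me3 regions (coloured bars) within 1500 bp of the commonest annotated start site of each gene (dashed line at 0; horizontal axis in bp along the direction of transcription, vertical axis gene). The TAF4b replicate 1 peak covers that start site at 12 genes and an H3K4me3 replicate 1 region at 26. Tdrd9 shows a TAF4b peak with no H3K4me3 bar.

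Of the cofactors of piRNA amplification, 3 of 5 had a TAF4b promoter peak in replicate 1. Mael, a nuage protein whose loss releases transposons, had a peak (chr1:166066250-166066392) of score 22.3, rank 1693, at -5 bp, in a small H3K4me3 region of score 28.3 and 634 bp. Ddx4, the VASA helicase and a standard germ cell marker, had one (chr13:112788807-112788949) of score 20.8, rank 1966, at -43 bp, in a region of score 80.5 and 1593 bp. Fkbp6, a cochaperone that helps load PIWI proteins, had one (chr5:135378847-135378989) of score 14.4, rank 3544, at -20 bp, in a region of score 53.7 and 1071 bp. Mael and Mov10l1 had equal TAF4b scores, and both ranked higher within TAF4b than within H3K4me3.

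Gtsf1, a small protein that stimulates cutting by PIWI proteins, had no TAF4b row. Its H3K4me3 region (score 65.6, 827 bp) lay wholly upstream of the start site that most of its transcripts share. Exd1, an adaptor of the amplification complex, was named by no row. Its start site was nevertheless covered by a region of 1881 bp and score 95.4 that the files assign to Chp1, transcribed from the opposite strand, and the mark of Exd1 and that of Chp1 cannot be told apart.

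Nuclear silencing genes had an H3K4me3 promoter interval at 3 of 3, against 48.6% of all genes, and a TAF4b one at 1 of 3, near the 24.9% of all genes. Spocd1, a partner of MIWI2 in de novo methylation, had the lowest TAF4b score of all the piRNA genes, 9.43, rank 5071 (chr4:129822300-129822442, -671 bp), with an H3K4me3 region of score 34.3 and 630 bp. Tex15, another nuclear partner of MIWI2, had H3K4me3 regions on both sides of its commonest start site, a promoter region of score 46.2 and 637 bp and an intron region of score 34.3 and 500 bp. Morc1, an ATPase needed for transposon silencing in fetal male germ cells, had a region of score 25.3 and 500 bp, and 6.74% of promoter regions scored lower. The H3K4me3 promoter regions of these 3 genes all scored below the piRNA gene median of 61.8.

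Both genes of the arginine methyltransferase complex had a TAF4b peak. Prmt5, the enzyme that methylates PIWI proteins so that Tudor proteins bind them, had the highest TAF4b score of the 32 genes, 39.7, rank 186 of 5756 (chr14:54754877-54755019, -21 bp). No TAF4b replicate 2 peak was listed at Prmt5, although 61% of the 200 replicate 1 promoter peaks with at least its score overlapped one. Its H3K4me3 region was in contrast short, at 500 bp with a score of 35.8. The gene n-TRacg6 starts on the opposite strand within 500 bp of Prmt5. Wdr77, the partner of PRMT5 known as MEP50, shares its promoter with Atp5pb on the opposite strand. The peak there (chr3:105866602-105866744, score 14.9, rank 3387, -12 bp) was annotated to Atp5pb with Wdr77 as the nearest start site, and the wide H3K4me3 region (score 92.4, 2006 bp) to Atp5pb. Which gene of the pair the intervals belong to cannot be told apart.

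Both transcriptional regulators were listed in 3 of the 4 lists. Mybl1 encodes A-MYB, known for switching on pachytene piRNA genes in meiosis, and its TAF4b peak (chr1:9770561-9770703) scored 16.4, rank 2991, at -198 bp. Its H3K4me3 replicate 1 promoter region was the widest and highest-scoring promoter-TSS region of the piRNA genes, 2216 bp with a score of 146.1, and replicate 2 listed one as well (chr1:9769792-9770292, score 101.1, rank 714 of 1037). Btbd18, a nuclear protein needed to transcribe pachytene piRNA precursors, had a TAF4b peak (chr2:84489273-84489415) of score 23.3, rank 1537, at -79 bp. The replicate 1 H3K4me3 region of Btbd18 had the lowest score among promoter-TSS regions of the piRNA genes, 20.9 over 500 bp, and did not overlap the TAF4b peak, whereas the replicate 2 region (chr2:84489218-84489855, score 111.2, rank 499) did. Ctnnd1 starts on the opposite strand within 500 bp of Btbd18.

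In score, the TAF4b peaks at piRNA genes lay in the middle of their list. Their 21 replicate 1 scores ranged from 9.43 (Spocd1) to 39.7 (Prmt5) with a median of 16.9, and the median over all 5756 promoter peaks was also 16.9. The share of promoter peaks scoring lower ran from 9.12% to 96.5%, with a median of 48.1%. H3K4me3 replicate 1 regions at 28 piRNA genes had a median score of 61.8, against 77.5 for all promoter regions, and a median width of 1032 bp, against 1197 bp. Low H3K4me3 scores occurred at genes with a TAF4b peak (Btbd18, Mov10l1, Mael) and without one (Morc1, and Piwil1 by its distant interval).

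**Figure D3:**
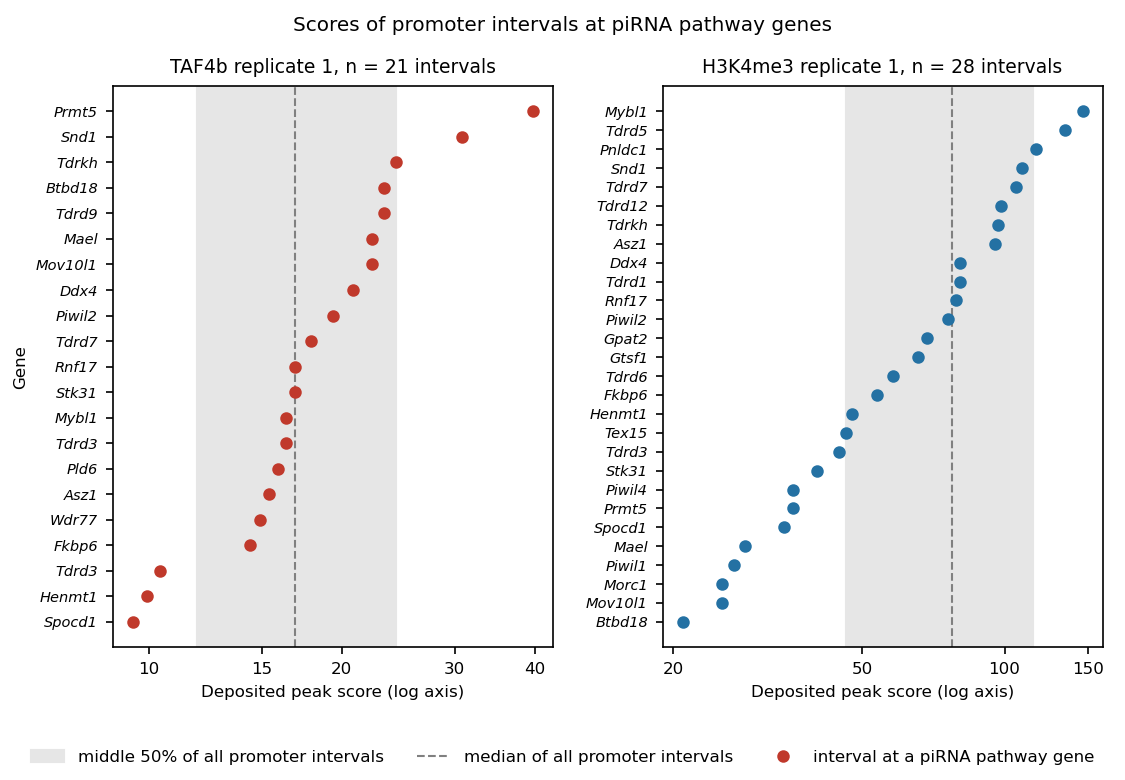
Deposited peak score (log horizontal axes) of each promoter-TSS interval at a piRNA gene in TAF4b replicate 1 (left, red) and H3K4me3 replicate 1 (right, blue), with 1 row per interval and the gene named at left. The grey band spans the middle 50% of all promoter intervals of the list and the dashed line their median, 16.9 and 77.5. Prmt5 (39.7) is the rightmost TAF4b point and Mybl1 (146.1) the rightmost H3K4me3 point, and points lie on both sides of each median.

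H3K4me3 at piRNA genes was compared between those with and without a TAF4b promoter peak, using the widest and highest region within 500 bp of a start site. The median width was 1222 bp over the 19 with a peak and 1017 bp over the 12 without, and the median scores were 76 and 67.1. Widths ran from 500 to 2216 bp with a peak and from 500 to 1973 bp without, so the groups overlapped over nearly their whole range. Over all genes the median widths were 1491 bp with a TAF4b peak and 1374 bp without, both above the piRNA gene values. The TAF4b peak lay in an H3K4me3 region of replicate 1 at 18 of the 20 piRNA genes (90%, the exceptions being Btbd18 and Tdrd9), against 87.6% of all genes with a TAF4b promoter peak. With only the higher-scoring 50% of each list kept, the count was 10 of 17 piRNA genes, against 83.3% of all genes with such a peak. Which share was higher thus depended on the score threshold. In replicate 2 the Snd1 peak lay in no H3K4me3 region, where the share of all genes was 12.7%.

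Replicate 2 held 748 TAF4b promoter peaks, against 5756 in replicate 1, and 1037 H3K4me3 promoter regions, against 13454. Only a small share of replicate 1 could therefore be found again in replicate 2. Of the 21 TAF4b peaks at piRNA genes 4.76% overlapped a replicate 2 peak, against 10.6% of all promoter peaks and 9.71% of the 5046 with scores in the range of the piRNA genes. For peaks with at least the score of Snd1 the share was 46.2%. Of the 28 H3K4me3 promoter regions 10.7% overlapped a replicate 2 region, against 7.47% of all 13454.

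The promoter windows of the 32 genes, from 250 bp before to 50 bp after the commonest start site, were searched for 9 motifs, as were those of all protein-coding genes. The NRF1 arm GCGCATG was present on either strand at 9 piRNA genes (28.1%), against 5.02% of 21751 promoters, and the E box CACGTG likewise at 9 (28.1%), against 7.81%. The 9 with the NRF1 arm were Piwil1, Piwil4, Mov10l1, Tdrd9, Tdrd12, Fkbp6, Tex15, Stk31 and Gpat2. The E box genes were Mael, Mov10l1, Tdrd1, Tdrd9, Pld6, Pnldc1, Fkbp6, Spocd1 and Stk31. Mov10l1, Tdrd9, Fkbp6 and Stk31 held both.

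For 4 motifs the share is given separately for piRNA genes with and without a TAF4b peak. GCGCATG was present at 20% of the 20 with a peak and 41.7% of the 12 without, whereas over all genes the shares were 8.69% and 3.8%. CACGTG was present at 35% with a peak and 16.7% without, against 11.9% and 6.44% over all genes. CCAAT stood at 65% and 41.7% of piRNA genes, against 45.5% and 38.4% of all genes, and GGGCGG at 70% and 41.7%, against 64.7% and 34.8%. Prmt5, Snd1 and Mael are among the 13 with CCAAT and a TAF4b peak. With 12 to 20 genes a group, 1 gene moves a share by at least 5 percentage points, and no test was run.

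Other motifs were less common at the piRNA genes. GGCGGGA was found at Mael, Ddx4, Mybl1 and Snd1 (12.5%, against 13.3%), and CCGGAAG at 9.38%, against 10.3%. The CREB and ATF motif TGACGTC was at none of the 32, against 3.92% of all promoters. The MYB motif TAACGG was found at Mov10l1 alone (3.12%, against 3.01%), and the TATA box TATAAA at Piwil4, Ddx4 and Stk31 (9.38%, against 13.2%). Within the TAF4b peaks themselves, CCAAT was present in 61.9% of 21, against 37.9% of all 5756 promoter peaks, and GGGCGG in 57.1%, against 56.9%. GCGCATG was in 14.3% of the 21, against 5.94%, and CACGTG in 23.8%, against 7.24%.

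**Figure D4:**
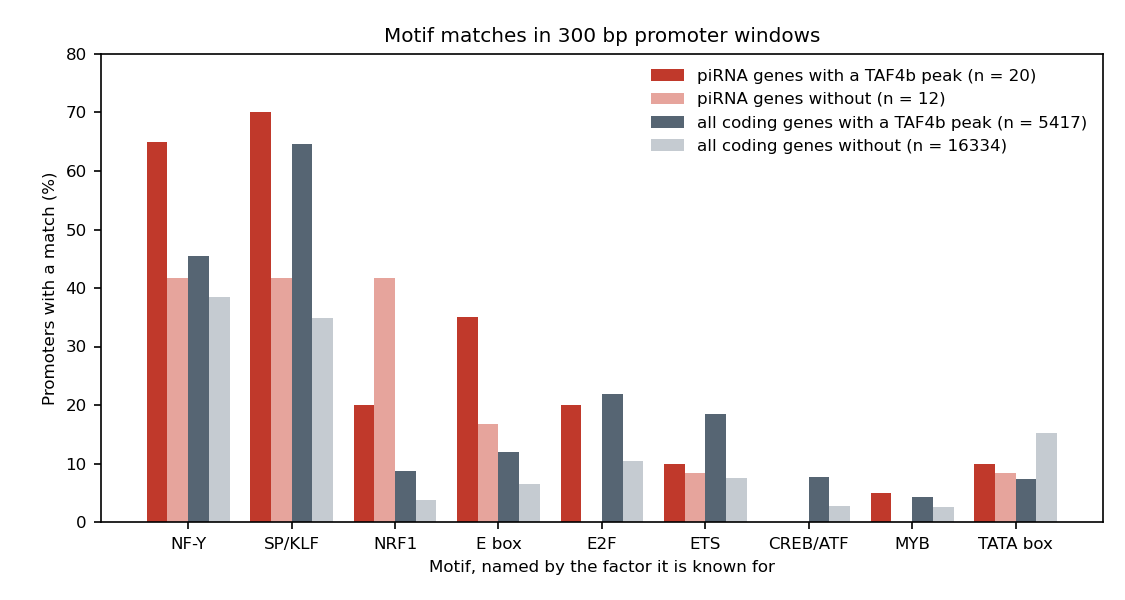
Share of promoters (vertical axis, percent) with a match to each motif (horizontal axis, named by the factor it is known for) for piRNA genes with a TAF4b peak (n = 20), piRNA genes without (n = 12), all coding genes with one (n = 5417) and all without (n = 16334). Bars have no error, as each is a count of fixed sequences. The NRF1 bar is 41.7% for piRNA genes without a peak and 20% for those with one.

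Base composition of the windows was also compared. The ratio of observed to expected CpG had a median of 0.76 at piRNA genes with a TAF4b peak and 0.582 at those without, against 0.778 and 0.369 over all genes. For the 32 together the median was 0.726, against 0.515 for all protein-coding genes, and median GC content was 60.5%, against 54.3%. GCGCATG and CACGTG both hold a CpG, and the part of base composition in their shares was not tested. Tdrd7 had the highest ratio, 1.08, and Gtsf1 the lowest, 0.199, with a GC content of 37%. The whole range without a peak was 0.199 to 0.809 and that with a peak 0.361 to 1.08. A protein-coding gene started on the opposite strand within 500 bp at 3 piRNA genes (Btbd18, Wdr77 and Exd1, 9.38%), against 9.94% of all genes. Only a gene of another kind did so at 8 piRNA genes (25%), against 19.4%. Among the 20 with a TAF4b peak that share was 30%, as it was over all genes with one.

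Further genes of the pathway and of transposon silencing were read from the same lists, 28 genes of the annotation in all. TAF4b replicate 1 listed a promoter interval at 10 of them, beside 24.9% of all protein-coding genes. Among 18 biogenesis, nuage and cofactor genes these were 6: Hspa2, a chaperone of later germ cells, with the highest score of 34.7 (rank 382), the chaperone Hsp90aa1 at 22.8, the mitochondrial anchor Akap1 at 18.9, the germ cell RNA-binding protein Dnd1 at 17.4, the exosome nuclease Exosc10 at 14.9 and the RNA-binding protein Fxr1 at 10.9. Among 10 transposon silencing genes they were 4: the maintenance methylation factor Uhrf1 at 19.9, the corepressor Trim28 at 17.9, the histone methyltransferase Ehmt1 at 13.4 and the de novo DNA methyltransferase Dnmt3a at 10.4. Dnmt3l, the germ cell cofactor of de novo methylation, had no TAF4b row and an H3K4me3 region of score 65.6 and 1521 bp. H3K4me3 replicate 1 listed 15 of the 28 at a promoter, which is near the 48.6% of all genes. H3K4me3 replicate 2 listed Dnmt3a (score 111.2, rank 499), and TAF4b replicate 2 listed none, where the shares of all genes were 4.78% and 3.57%. By coordinates, TAF4b replicate 1 had an interval within 500 bp of a start site at 8 of the 18 and 4 of the 10, beside 28.2% of all genes. TAF4b replicate 2 had one at 1 of the 18 and 0 of the 10, near the 4.08% of all genes. That 1 was the RNA-binding protein gene Elavl1, which was also among the 8 of replicate 1.

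The cell label was checked against marker genes in the same lists. TAF4b replicate 1 had a promoter interval at 5 of 10 germ cell markers (Dazl, Ddx4, Dnd1, Mael and Sycp3), beside 24.9% of all genes. Ddx4 and Mael are themselves piRNA genes of the 32, and without them the count was 3 of 8. The same list had a promoter interval at 0 of 6 Sertoli, 0 of 5 Leydig, 0 of 3 endothelial and 0 of 3 macrophage markers. H3K4me3 replicate 1 had a promoter interval at 5 of 10 germ cell markers (3 of 8 without Ddx4 and Mael) and 5 of 6 Sertoli markers (Cldn11, Dhh, Gata4, Sox9 and Wt1), beside 48.6% of all genes. Within 500 bp of a start site it had a region at 8 of 10 germ cell markers, all but Nanos2 and Nanos3 (6 of 8 without Ddx4 and Mael), and at the same 5 Sertoli markers, beside 70.7% of all genes. By this measure it had one at 1 of 5 Leydig, 2 of 3 endothelial and 1 of 3 macrophage markers. Rows of any class in H3K4me3 replicate 1 were at 10 of 10 germ cell and 6 of 6 Sertoli markers, beside 78.4% of all genes. These H3K4me3 counts do not separate germ cells from Sertoli cells. The replicate 2 lists held a row of any class at 0 of 10 germ cell markers, where the shares of all genes were 3.82% for TAF4b and 7.46% for H3K4me3. H3K4me3 replicate 2 held a row at 3 of 6 Sertoli markers (Amh, Gata4 and Wt1), beside the same 7.46%, and a promoter interval at Wt1, beside 4.78%. The markers in that list thus go against the germ cell label, on 3 genes. The part of other cells in the H3K4me3 counts at piRNA genes was not tested.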

How the data were processed

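CUT&RUN libraries of TAF4b and H3K4me3, 2 replicates each, were used as deposited lists of intervals, 1 per library. The 2 IgG libraries were not analysed here. Per the submitters' processing notes, bcl2fastq 2.20, Trim Galore 0.5.0, FastQC 0.11.5, Bowtie2 2.3.0, SAMtools 1.9, HOMER 4.10 and the build GRCm39 were used. Per the file headers, H3K4me3 regions were annotated with HOMER against Ensembl 103. The peak calling settings, the control and the threshold are not given in the sources used here. The deposited peak score is a signal value whose normalization is not given in the sources used here, so it was ranked within a list. Depth is unknown, so no interval or detection limit is given.

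Transcripts were mapped to genes through GENCODE M39, and 1.42% to 1.76% of intervals per list named a transcript it does not hold. The headers of the TAF4b lists name no build, and deposited distances fell within 1 bp of those computed on GRCm39 for 57.9% and 52.4% of TAF4b intervals (replicates 1 and 2) and 77.2% and 66% of H3K4me3 intervals. Intervals overlapped when they shared 1 bp. The commonest start site is the one that most annotated transcripts of a gene share. Motifs were searched on both strands of 300 bp windows and of the TAF4b peaks. Scripts used Python 3.11.15, pandas 2.3.3, numpy 2.4.6 and matplotlib 3.10.9, and were tested on simulated data. The genes, lists and motifs were chosen with earlier results of these data known. The text names every listed piRNA gene, and further pathway and silencing genes where TAF4b had a promoter peak. Dnmt3l and Elavl1 were added after their values were seen. Tdrd15 was not matched in the annotation. No hypothesis test was run. Alternatives covered the rows counted, the score threshold, the list size, the overlap, the ranking and the motif window.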

Additional observations from a re-analysis of the deposited data

How the results depend on the processing

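Of 52 alternatives over 24 results, 39 stayed close to the reported value and 13 moved it. Interval counts were called close within 1.5-fold, and motif counts when the share lay in a 95% Wilson interval around the reported one. These are wide limits. By them CCAAT at 13 of 32 genes in place of 18 is close, beside 29.8% and 40.2% of all genes. With replicate 1 cut to as many of its highest-scoring intervals as replicate 2 holds, the piRNA genes with a promoter interval were 2 of 32 for TAF4b (20 in the full list), beside 3.79% of all genes, and 0 for H3K4me3 (28 in the full list), beside 4.02%. With the higher-scoring 50% of each list, H3K4me3 replicate 1 listed 18 genes, beside 40.3% of all, and the TAF4b peak lay in an H3K4me3 region at 10 of 17 genes, beside 83.3% of all genes with such a peak (18 of 20 in the full lists, beside 87.6%). With the H3K4me3 list of the other replicate number, that count was 2 of 20 for TAF4b replicate 1, beside 8.9%, and 1 of 1 for replicate 2, beside 91.6% (0 in the same-numbered list, beside 12.7%). Ranked against all intervals, the median share scoring lower was 57.9% for TAF4b and 63.8% for H3K4me3. The widest region near a start site gave a median width of 1128 bp. Rows of any class named 26 of the 28 further pathway and silencing genes in H3K4me3 replicate 1, in place of 15, while the share of all genes rose from 48.6% to 78.4%. TATAAA was present at 0 of 32 genes within 100 bp of the start site, in place of 3, beside 8.01% and 13.2% of all genes.

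The choice to leave out each replicate, to count only the annotated gene and to match scores was made after seeing the data. Leaving out each replicate in turn, the genes with a promoter interval in at least 1 replicate ranged from 1 to 20 for TAF4b and from 3 to 28 for H3K4me3, the low values being those without replicate 1. No paired analysis was possible because the results come from no test and what a replicate number shares is not given in the sources used here. The lists hold only intervals that passed the authors' threshold, without read totals, so a gene with no interval is not shown to lack TAF4b or the mark.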
